A study of Mus musculus with 20 samples.

Results

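The 37 aminoacyl-tRNA synthetase genes of the mouse were followed in BV-2 cells, an immortalized microglial line, across 4 groups of 5 RNA libraries. They are the protein-coding genes whose symbol is 1 capital letter followed by ars or ars2, together with Eprs, Farsa, Farsb and Ears2, among the 56941 gene IDs of the count table. All 37 were measured and all 37 passed the filter on low counts. Of these, 20 encode cytosolic enzymes and 17 mitochondrial ones. Wars, the cytosolic tryptophan enzyme, was set against the other 36.

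The groups were cells labelled as RGS10 knockout with IFNγ, the same line with vehicle, wild-type cells with IFNγ, and wild-type cells with vehicle. RGS10 is a regulator of G protein signalling. Vehicle was medium alone, IFNγ was given at 10 ng/mL, treatment lasted 48 h, and poly(A)-selected RNA was sequenced. In each group, replicates 1, 2 and 3 belonged to batch 1, replicate 4 to batch 2 and replicate 5 to batch 3. The labels call the replicates biological, but the sources used here give neither culture history nor the number of knockout clones. The p-values therefore reflect only how much these libraries varied, which may be technical.

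Aminoacyl-tRNA synthetases each attach 1 kind of amino acid to its matching tRNA, the step that ties the genetic code to protein. In mammals a group of cytosolic synthetases is held in the multisynthetase complex by the scaffold proteins Aimp1, Aimp2 and Eef1e1, and most mitochondrial enzymes come from separate nuclear genes. In human cells the tryptophan enzyme is a known IFNγ-induced gene, and the transcription factor ATF4 is known to raise many cytosolic synthetase genes when amino acids run short. Microglia are the resident macrophages of the brain, and IFNγ is the T cell and natural killer cell cytokine that activates macrophages.

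Total counts per library lay between 15866749 and 29157740. The 4 IFNγ libraries of batches 2 and 3, from both lines, stood apart from the other 16. Their TMM scaling factors were 0.635 to 0.892 and their Malat1 level was 1140 to 2390 CPM (counts scaled to TMM-adjusted library size, the unit of all levels here), against 1.01 to 1.12 and 48.2 to 370 CPM in the other 16 libraries. Rgs10 had 22.6 to 34.6 CPM in knockout-labelled and 55.1 to 73.0 CPM in wild-type vehicle libraries. With IFNγ it had 15.5 to 50.5 CPM in knockout-labelled and 22.2 to 49.97 CPM in wild-type libraries, and its difference was not called (log2 −0.33 ± 0.17 SE, edgeR quasi-likelihood test, Benjamini-Hochberg adjusted p = 0.13). The IFNγ comparison between the lines therefore rests on the label and not on a lower Rgs10 transcript level. All 10 microglia and macrophage markers averaged 1 CPM or more in every group. The summed markers of astrocytes, neurons, lymphocytes and fibroblasts stayed at or below 0.597 CPM in every library, and those of oligodendrocytes lay between 0.457 and 6.22 CPM. The endothelial marker Pecam1 rose with IFNγ in both lines, to at most 16.4 CPM, while Cldn5 was at or near 0. In bulk RNA, fewer cells and less RNA per cell cannot be told apart.

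Promoter sequences were looked at because many of these genes moved together. RefSeq promoters (GRCm38.p6, 250 bases before to 50 bases after each start) matched 27 of the 37 genes, in 28 windows. Those without an entry included Cars, Hars, Hars2, Lars, Nars, Pars2, Rars, Vars and Wars. The ATF4 element TGATGNAA, searched on both strands, was in 5 windows (17.9%), those of Aars, Gars, Iars, Tars and Yars, against 3.97% of 32851 promoters. The gamma-activated site TTCNNNGAA, an element of IFNγ-induced promoters, was in 3 windows (10.7%), those of Aars, Kars and Nars2, against 8.3% of all promoters. The interferon-stimulated response element core was in 1 window, that of Qars (3.57%, against 3.44% of all promoters). The ATF4 and gamma-activated patterns did not overlap in any window shown. Below are the alanine gene Aars, which has both patterns and was not called with IFNγ in either line, and the isoleucine and threonine genes Iars and Tars, which have the ATF4 element and fell in both. Capitals mark the pattern matches, the ATF4 element being read on the opposite strand as TTGCATCA or TTTCATCA. Counted from the annotated start, the matches begin at −112, −88 and 9 in Aars, at 7 in Iars and at −15 in Tars. A match is a description of the letters only.
Aars, chr8:111033592-111033891, plus strand: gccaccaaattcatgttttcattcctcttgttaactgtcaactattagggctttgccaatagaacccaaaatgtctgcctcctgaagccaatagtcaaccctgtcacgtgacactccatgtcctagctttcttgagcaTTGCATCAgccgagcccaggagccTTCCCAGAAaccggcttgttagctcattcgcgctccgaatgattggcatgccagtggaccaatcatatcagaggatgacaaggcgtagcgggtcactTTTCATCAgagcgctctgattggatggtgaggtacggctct
Iars, chr13:49681880-49682179, plus strand: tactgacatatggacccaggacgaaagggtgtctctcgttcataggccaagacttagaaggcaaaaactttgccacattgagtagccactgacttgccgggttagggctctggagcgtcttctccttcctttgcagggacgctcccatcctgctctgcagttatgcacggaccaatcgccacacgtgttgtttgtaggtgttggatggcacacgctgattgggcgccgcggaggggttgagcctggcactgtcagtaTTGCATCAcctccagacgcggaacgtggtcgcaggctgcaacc
Tars, chr15:11399609-11399908, minus strand: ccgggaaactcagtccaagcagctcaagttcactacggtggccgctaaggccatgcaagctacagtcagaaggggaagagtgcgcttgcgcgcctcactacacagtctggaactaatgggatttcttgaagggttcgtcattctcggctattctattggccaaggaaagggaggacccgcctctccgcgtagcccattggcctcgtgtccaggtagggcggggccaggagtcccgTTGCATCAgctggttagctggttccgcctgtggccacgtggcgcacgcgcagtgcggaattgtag

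By group mean per kilobase of exon, Wars was the highest of the 37 genes under IFNγ and 12th under vehicle, in both lines. The length used was that of all annotated exons of a gene, which can exceed the length of the expressed transcript. In CPM, without division by length, Wars was not the highest. It averaged 436 CPM in knockout-labelled IFNγ libraries, below Sars (511), Eprs (504), Aars (477) and Lars2 (455). In wild-type IFNγ libraries it averaged 334 CPM, below Aars (441) and Lars2 (407). Its level was 126 ± 30.5 CPM per kb in knockout-labelled IFNγ libraries and 49.5 ± 4.62 in knockout-labelled vehicle libraries. The wild-type level was 97.0 ± 5.01 CPM per kb with IFNγ and 46.4 ± 7.59 with vehicle (SD, n = 5 in each group). The next genes in order under IFNγ were the arginine gene Rars in knockout-labelled cells (109 ± 39.0 CPM per kb) and the glycine gene Gars in wild-type cells (81.2 ± 19.8 CPM per kb), and neither lay clear of Wars beyond its SD. The order in knockout-labelled IFNγ libraries turned by batch. In batch 1, Rars (455, 438 and 442 CPM, 3228 exon bases) lay above Wars (352, 367 and 378 CPM, 3447 exon bases) per kb. In batches 2 and 3, Rars (215 and 215 CPM) lay below Wars (480 and 601 CPM). Under vehicle, Rars ranked first in knockout-labelled cells (158 ± 13.7 CPM per kb) and Gars in wild-type cells (133 ± 16.6 CPM per kb). Nars, the asparagine gene, was next to Gars in wild-type vehicle libraries at 130 ± 8.70 CPM per kb, within the SD of both. Most mitochondrial genes lay at the low end. Lars2 was the highest of them in both IFNγ groups (41.0 ± 33.7 CPM per kb in knockout-labelled cells, 36.7 ± 15.4 in wild-type cells). It ranked 11th and 8th of the 37 there, above many cytosolic genes. Wars2, the mitochondrial tryptophan enzyme, ranked 34th in both IFNγ groups.

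Wars rose with IFNγ in both lines. In knockout-labelled cells its level was 352, 367, 378, 480 and 601 CPM with IFNγ in replicates 1 to 5, against 175, 162, 161, 158 and 197 CPM with vehicle. In wild-type cells it was 333, 327, 311, 357 and 344 CPM with IFNγ, against 176, 176, 180, 149 and 118 CPM with vehicle. In each line the lowest IFNγ library lay above the highest vehicle library, and the knockout-labelled IFNγ libraries of batches 2 and 3 were the highest of all 20. The log2 change was 1.35 ± 0.15 (SE; 2.54-fold) in knockout-labelled cells, with an edgeR adjusted p of 7.1e-07. For wild-type cells the change was 1.05 ± 0.15 (2.08-fold), with an edgeR adjusted p of 4.5e-06. The two-sided exact permutation test over 252 splits, made without regard to batch, gave p = 0.0079 in each line, the smallest it can give. Wars was the only member called higher with IFNγ in either line, where 21.4% of the 13755 genes tested in knockout-labelled cells and 29% in wild-type cells were called higher. Hars2 was also called higher in wild-type cells without IFNγ replicate 4, and Lars2 in knockout-labelled cells without IFNγ replicate 3. Among the other 36 genes, 0 were called higher in either line, 0 reached an unadjusted p under 0.05 in that direction, and DESeq2 called 0.

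Within batches 1, 2 and 3 the log2 difference of Wars with IFNγ was 1.14, 1.60 and 1.61 in knockout-labelled cells. The wild-type values were 0.87, 1.25 and 1.53. The 2 smaller batches have 1 library per group, so they give values without a test. The median of the other 36 genes was below 0 in every batch, at −0.31, −1.01 and −1.24 in knockout-labelled cells and −0.93, −0.98 and −1.04 in wild-type cells. Wars had the highest log2 difference of the 37 in every batch except batch 2 of the knockout-labelled cells, where Lars2 exceeded it.

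**Figure D1:**
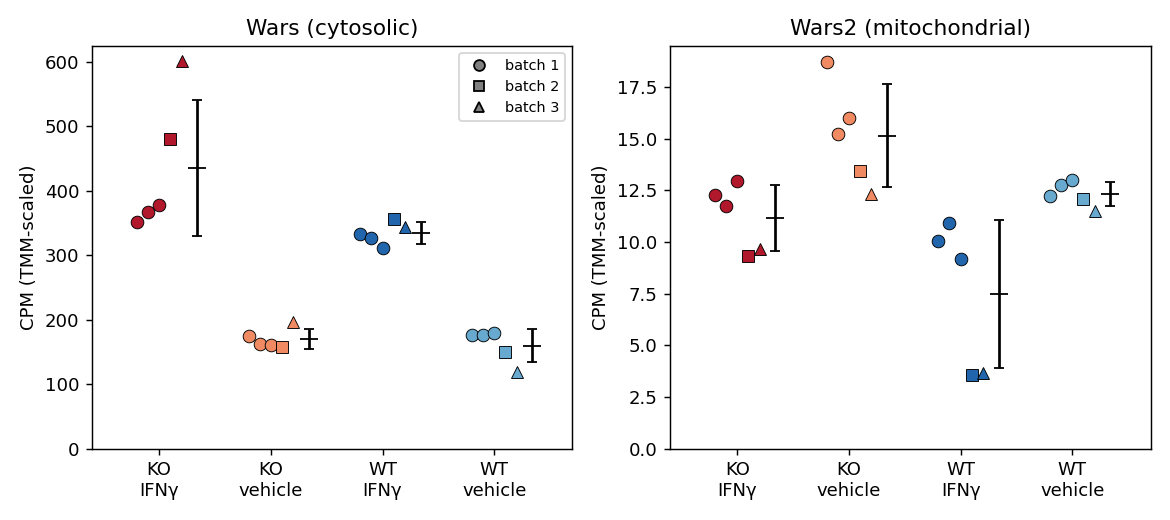
Level of Wars (left) and Wars2 (right) in CPM on TMM-scaled library sizes for each of the 20 libraries, grouped by line and treatment, with symbols for batch and bars for mean ± SD (n = 5). All 10 IFNγ libraries had 311 CPM of Wars or more and all 10 vehicle libraries 197 CPM or less, whereas Wars2 was lowest in wild-type IFNγ replicates 4 and 5.

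Most other synthetase genes fell with IFNγ. In knockout-labelled cells 24 of the 37 were called lower and 12 were not called, where 21.8% of all genes tested were called lower. In wild-type cells 31 were called lower and 5 were not called, where 29.9% of all genes tested were called lower. All 24 genes called lower in knockout-labelled cells were among the 31 of wild-type cells (77.4% of the 31). The 7 called lower only in the wild-type fit were Farsa, Kars, Mars2, Pars2, Sars, Tars2 and Wars2, and for none of these 7 did the edgeR fit call the response different between the lines. DESeq2 called it different for Mars2 and Tars2, edgeR without a filter on low counts for Mars2, and edgeR in batch 1 alone for Farsa, Kars, Mars2, Sars and Tars2. Those called in neither line were Aars, Aars2, Fars2, Hars2 and Lars2. The median log2 change of the 36 genes other than Wars was −0.64 in knockout-labelled cells and −0.91 in wild-type cells, against −0.02 and 0.01 over all genes tested.

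Genes of every role in the family fell. Of the 8 synthetases of the multisynthetase complex (Eprs, Iars, Lars, Mars, Qars, Rars, Kars and Dars), 7 fell in knockout-labelled cells, Kars being the exception, and all 8 fell in wild-type cells. Of the 11 other cytosolic genes besides Wars, 8 fell in knockout-labelled cells and 10 in wild-type cells. Of the 17 mitochondrial genes, 9 fell in knockout-labelled cells and 13 in wild-type cells. The median log2 change of the 8 complex members was −0.67 in knockout-labelled and −1.03 in wild-type cells, and that of the 17 mitochondrial genes was −0.64 in knockout-labelled and −0.97 in wild-type cells.

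Among the genes with the smallest adjusted p, Nars2, the mitochondrial asparagine enzyme, was named in both lines. It had 14.7, 12.3, 14.8, 6.81 and 9.13 CPM with IFNγ in knockout-labelled cells, against 26.7, 23.1, 22.0, 24.0 and 27.3 CPM with vehicle. In wild-type cells it had 10.0, 10.5, 8.91, 4.68 and 6.56 CPM with IFNγ, against 22.0, 22.8, 23.5, 21.8 and 23.5 CPM with vehicle. The groups did not overlap in either line, and the lowest values were in batches 2 and 3. The log2 change was −1.14 ± 0.18 in knockout-labelled cells (edgeR adjusted p = 4.6e-05) and −1.52 ± 0.18 in wild-type cells (edgeR adjusted p = 7.7e-07).

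In knockout-labelled cells the other 3 genes named by that rule were the leucine gene Lars, the mitochondrial isoleucine gene Iars2 and the threonine gene Tars. Lars had 160, 172, 166, 59.9 and 62.9 CPM with IFNγ, against 241, 236, 232, 168 and 205 CPM with vehicle (log2 −0.94 ± 0.15, edgeR adjusted p = 6.5e-05). Tars had 222, 229, 232, 66.5 and 69.1 CPM with IFNγ, against 324, 320, 318, 218 and 309 CPM with vehicle (log2 −1.05 ± 0.19, edgeR adjusted p = 2.4e-04). For both genes the IFNγ and vehicle ranges overlapped across batches, though within every batch the IFNγ libraries were lower. Iars2 had 47.5 to 122 CPM with IFNγ, against 171 to 221 CPM with vehicle, without overlap (log2 −0.96 ± 0.18, edgeR adjusted p = 2.3e-04). The opposite-strand gene Rab3gap2 shares exon sequence with Iars2, and the sources used here do not give the counting strand.

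In wild-type cells the other 3 were the valine gene Vars, the methionine gene Mars and the aspartate gene Dars. Vars had 90.4, 94.97, 99.9, 106 and 66.2 CPM with IFNγ, against 430, 427, 428, 354 and 391 CPM with vehicle (log2 −2.16 ± 0.19, a 4.47-fold lower level, edgeR adjusted p = 1.4e-08). Mars had 65.3, 69.5, 68.4, 76.0 and 71.1 CPM with IFNγ, against 200, 205, 214, 185 and 194 CPM with vehicle (log2 −1.50 ± 0.17, edgeR adjusted p = 5.2e-07). Dars had 51.9 to 98.0 CPM with IFNγ, against 204 to 219 CPM with vehicle (log2 −1.43 ± 0.18, edgeR adjusted p = 1.6e-06). None of the 3, chosen by their small adjusted p, had overlapping groups. Of all 37 members, 26 had none in wild-type cells, and the share over all genes tested was not computed. The stress factor gene Ddit3 overlaps Mars on the opposite strand and rose in the same libraries (log2 3.02 ± 0.28, edgeR adjusted p = 3.9e-08), the direction opposite to that of Mars.

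**Figure D2:**
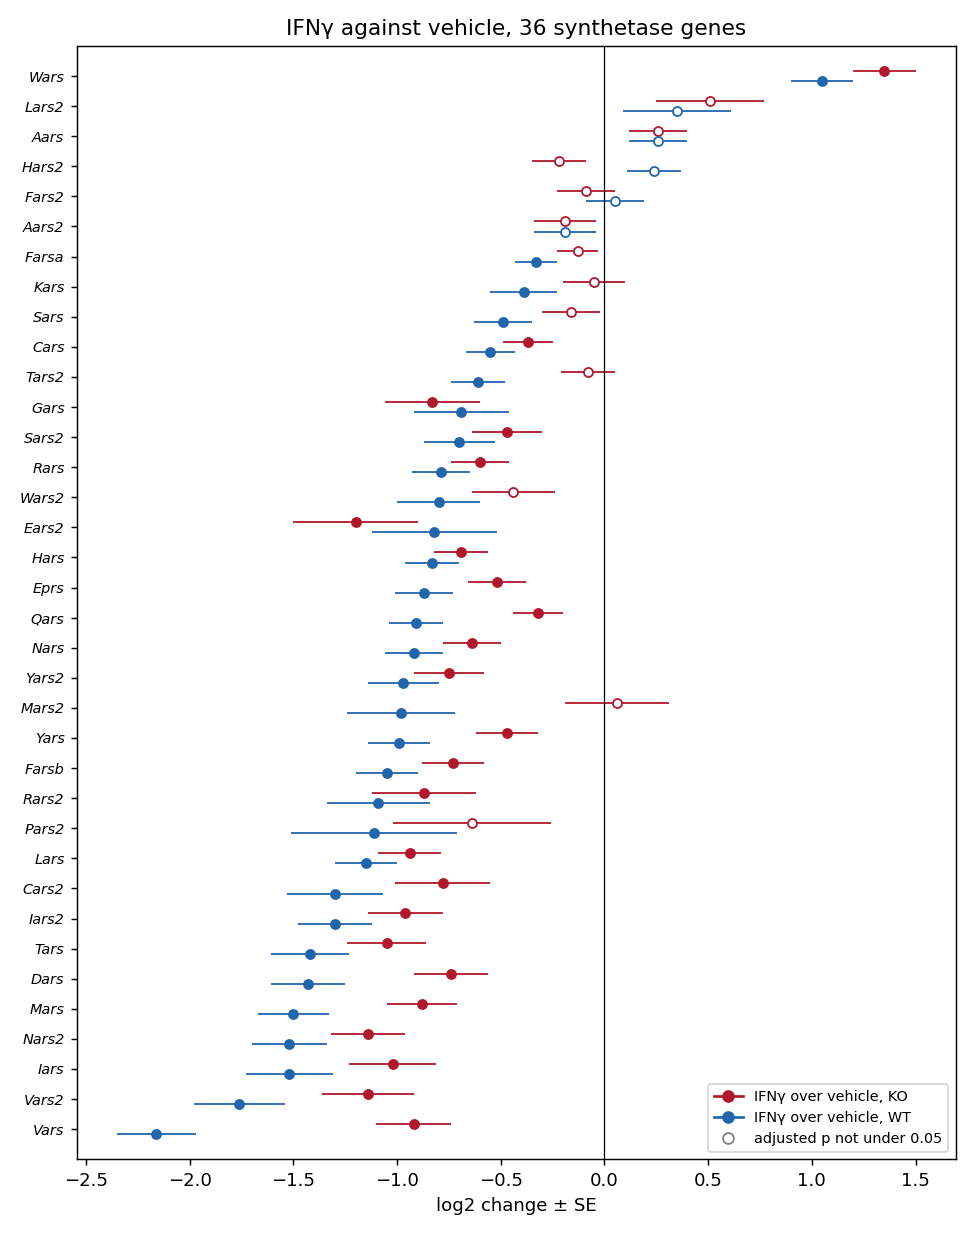
Log2 change ± SE (horizontal axis) of each of 36 synthetase genes with IFNγ over vehicle, in knockout-labelled (red, upper point of each pair) and wild-type cells (blue, lower point), from the edgeR fit, with open symbols where the adjusted p was not under 0.05. Wars lies at 1.35 and 1.05 and is the only filled symbol right of 0, while 23 knockout-labelled and 30 wild-type symbols are filled left of 0.

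The Wars share of cytosolic synthetase transcripts does not depend on library scaling, and it was higher with IFNγ in every batch of both lines. Wars counts were 6.41, 6.61, 6.88, 16.1 and 19.5% of the summed counts of the other 19 cytosolic genes in knockout-labelled IFNγ libraries, against 2.69, 2.53, 2.53, 2.76 and 3.01% with vehicle. In wild-type cells the share was 10.7, 10.1, 9.72, 11.2 and 10.9% with IFNγ, against 2.91, 2.90, 2.96, 3.01 and 2.37% with vehicle. Within the knockout-labelled IFNγ group, batch 1 lay below the wild-type IFNγ range and batches 2 and 3 lay above it. The summed level of the 19 genes was 5494, 5548, 5500, 2977 and 3089 CPM in knockout-labelled IFNγ libraries, against 3121, 3231, 3203, 3176 and 3141 CPM in wild-type IFNγ libraries. With vehicle it was 5721 to 6531 CPM in knockout-labelled and 4955 to 6088 CPM in wild-type cells. The low sum went with a raised level of Malat1, a nuclear noncoding RNA. The 7 IFNγ libraries with a low sum, 2977 to 3231 CPM, were the 2 knockout-labelled libraries of batches 2 and 3 and all 5 wild-type ones, and they had 338 to 2390 CPM of Malat1. The 3 knockout-labelled IFNγ libraries of batch 1 had 53.2 to 59.4 CPM of Malat1, and the 10 vehicle libraries 48.2 to 152 CPM. Wild-type IFNγ libraries of batch 1 thus had raised Malat1 too (338 to 370 CPM, against 63.8 to 81.5 CPM with vehicle in that batch), although their scaling factors did not stand apart. The part of library quality in this was not tested.

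**Figure D3:**
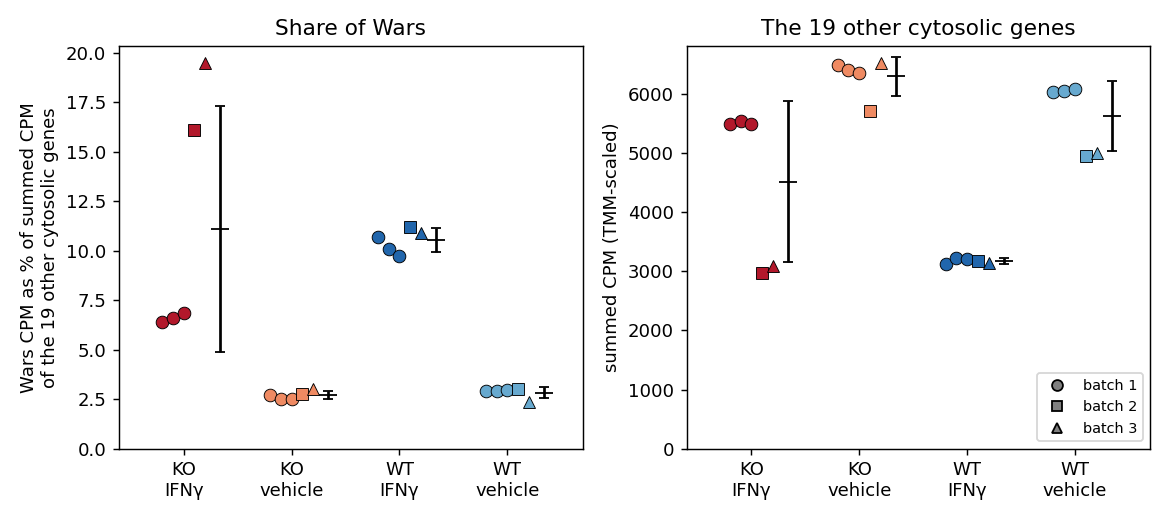
Wars as a percentage of the summed CPM of the other 19 cytosolic synthetase genes (left) and that sum in CPM (right), for each library by line and treatment, with symbols for batch and bars for mean ± SD (n = 5). The share was 6.41 to 19.5% in knockout-labelled and 9.72 to 11.2% in wild-type IFNγ libraries, and at most 3.01% in all vehicle libraries.

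Between the lines under vehicle, 8 of the 37 synthetase genes were called. The knockout-labelled cells had 6 of 37 (16.2%) called higher, where 12.5% of all genes tested were, so that count is near the share of all genes. They had 2 (5.41%) called lower, where 14.8% of all genes tested were. The 6 were Cars, Ears2, Eprs, Sars, Tars and Tars2, and the 2 were Qars and Hars2. The median log2 difference over the 37 was 0.08, against 0.03 over all genes tested. In batch 1 alone 12 members were called higher and 13 lower, where 28.4% and 30.0% of all genes tested were. Only 3 were called higher without wild-type vehicle replicate 1 or 2, or without knockout-labelled vehicle replicate 4 or 5 (Cars, Eprs and Sars each time). Wars was not called, at 158 to 197 CPM in knockout-labelled and 118 to 180 CPM in wild-type vehicle libraries (log2 0.08 ± 0.14, edgeR adjusted p = 0.72; two-sided exact permutation p = 0.51), and its within-batch differences were −0.10, 0.08 and 0.73.

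The glutamine gene Qars, in the complex, had the smallest adjusted p of these. Its level was 149, 148, 144, 175 and 171 CPM in knockout-labelled vehicle libraries, against 232, 236, 251, 325 and 325 CPM in wild-type ones (log2 −0.79 ± 0.13, edgeR adjusted p = 7.4e-05). Each batch showed the lower level, at −0.70, −0.90 and −0.92. The cysteine gene Cars had 184 to 217 CPM in knockout-labelled libraries, against 125 to 144 CPM in wild-type ones (log2 0.57 ± 0.12, edgeR adjusted p = 0.0014). Hars2, the mitochondrial histidine gene, had 14.9 to 19.5 CPM against 22.1 to 29.2 CPM in wild-type libraries (log2 −0.58 ± 0.13, edgeR adjusted p = 0.0017), and it shares exon sequence with Hars on the opposite strand. Eprs, the bifunctional glutamate and proline gene (log2 0.49 ± 0.13), the serine gene Sars (0.46 ± 0.14) and the mitochondrial threonine gene Tars2 (0.40 ± 0.13) had edgeR adjusted p of 0.010, 0.014 and 0.025. The Tars2 call was lost without any 1 of 5 libraries, namely wild-type vehicle replicates 1 and 2 and knockout-labelled vehicle replicates 1, 4 and 5.

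Under IFNγ the knockout-labelled cells had higher levels of many of these genes than wild-type cells. There were 16 of 37 called higher, where 20% of all genes tested were called higher, and 1 called lower, Hars2, where 19% were called lower. The median log2 difference was 0.47, against 0.01 over all genes tested, and 34 of 37 differences were above 0. These comparisons share libraries with each other, so the IFNγ changes within each line and these differences are not independent. The batches did not give the same picture, since the median difference of the other 36 genes was 0.55, 0.19 and 0.11 in batches 1, 2 and 3. In batch 1 alone 31 members were called higher, where 35.8% of all genes tested were. In batches 2 and 3 alone 2 members were, where 6.38% of all genes tested were, so that count is near the share of all genes.

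Vars showed the largest difference. Its level was 344, 359, 342, 216 and 124 CPM in knockout-labelled IFNγ libraries, against 90.4, 94.97, 99.9, 106 and 66.2 CPM in wild-type ones. The groups did not overlap, and every batch had the higher knockout-labelled level, with log2 differences of 1.87, 1.02 and 0.90 (fit 1.56 ± 0.18, 2.94-fold, edgeR adjusted p = 1.8e-06). Tars2 had 97.7, 94.7, 100.1, 95.7 and 63.7 CPM, against 46.4, 45.9, 49.7, 35.7 and 59.0 CPM in wild-type libraries (log2 0.94 ± 0.13, edgeR adjusted p = 1.2e-05). Cars had 137 to 170 CPM against 78.6 to 117 CPM in wild-type libraries (log2 0.75 ± 0.12, edgeR adjusted p = 7.9e-05), and Eprs 293 to 621 CPM against 253 to 283 CPM (log2 0.83 ± 0.14, edgeR adjusted p = 8.0e-05). Hars2 went the other way, with 12.3 to 20.2 CPM in knockout-labelled and 24.3 to 37.7 CPM in wild-type libraries (log2 −1.03 ± 0.13, edgeR adjusted p = 3.1e-06). None of these 5 genes, chosen by their small adjusted p, had overlapping groups. Of all 37 members, 7 had none, and the share over all genes tested was not computed.

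Wars itself was called higher in knockout-labelled IFNγ libraries by a narrow margin. The log2 difference was 0.37 ± 0.14 (1.29-fold, edgeR adjusted p = 0.047; two-sided exact permutation p = 0.016), with overlapping groups and within-batch differences of 0.18, 0.43 and 0.80. The call was lost without any 1 of 11 libraries, namely knockout-labelled IFNγ replicates 4 and 5, knockout-labelled vehicle replicates 1, 2 and 3, wild-type IFNγ replicates 1, 2, 3 and 5, and wild-type vehicle replicates 1 and 2. The difference ranged from 0.23 to 0.43 over all 20 such fits. Relative to the median of the other 36 genes, Wars was −0.10 in this comparison. That order turned by batch. Wars lay below the others' median in batch 1 (0.18 against 0.55) and above it in batches 2 (0.43 against 0.19) and 3 (0.80 against 0.11), and it ranked 31st, 13th and 8th of the 37.

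**Figure D4:**
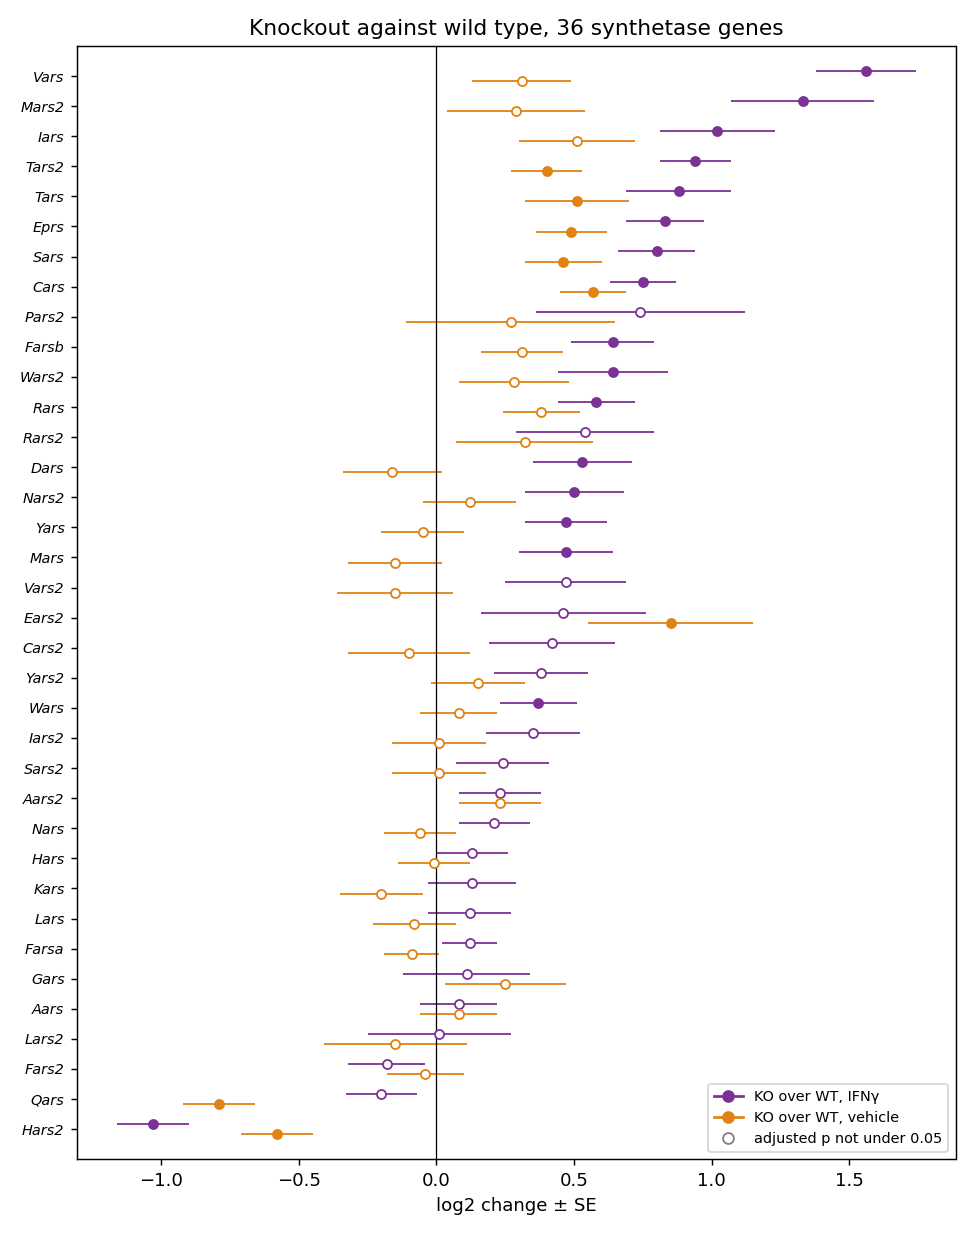
Log2 difference ± SE (horizontal axis) of each of 36 synthetase genes between knockout-labelled and wild-type cells, under IFNγ (purple, upper point of each pair) and under vehicle (orange, lower point), from the edgeR fit, with open symbols where the adjusted p was not under 0.05. Under IFNγ 16 symbols are filled right of 0, led by Vars at 1.56, and 1 left of 0, Hars2 at −1.03.

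The IFNγ response itself was tested for a difference between the lines, as the response of knockout-labelled cells minus that of wild-type cells. It was called for 2 of 37 genes, Vars and Qars, both with a smaller fall in knockout-labelled cells, where 3.64% of all genes tested were called higher and 2.86% lower. The count called higher was 4 with DESeq2 (6.01% of all genes), 29 in batch 1 alone (29.7% of all genes) and 0 in batches 2 and 3 alone (0.728% of all genes). The count called lower was 0, with 1 gene at an unadjusted p under 0.05 in that direction and 0 by DESeq2. Without wild-type IFNγ replicate 4, Hars2 was called lower. The edgeR count called higher was 5 without knockout-labelled IFNγ replicate 4 or 5, and 3 without knockout-labelled vehicle replicate 5. The difference of responses was not called for Wars (0.29 ± 0.20, edgeR adjusted p = 0.44).

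For Vars the difference of responses was 1.25 ± 0.25 (edgeR adjusted p = 0.0062), and within batches it was 1.67, 0.56 and 0.47. In knockout-labelled cells Vars fell to 277 ± 103 CPM with IFNγ, against 498 ± 16.8 CPM with vehicle, a log2 change of −0.92 ± 0.18 (edgeR adjusted p = 4.5e-04). In wild-type cells it fell to 91.5 ± 15.4 CPM, against 406 ± 33.3 CPM (SD, n = 5). Under vehicle, too, the groups did not overlap (486 to 527 CPM in knockout-labelled and 354 to 430 CPM in wild-type libraries, two-sided exact permutation p = 0.0079), though the edgeR fit did not call this difference (log2 0.31 ± 0.18, adjusted p = 0.21).

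For Qars the difference of responses was 0.59 ± 0.18 (edgeR adjusted p = 0.049). It had 134, 130, 131, 108 and 120 CPM in knockout-labelled IFNγ libraries, against 125, 127, 125, 211 and 147 CPM in wild-type ones. Its fall with IFNγ was −0.32 ± 0.12 in knockout-labelled cells (edgeR adjusted p = 0.047) and −0.91 ± 0.13 in wild-type cells (edgeR adjusted p = 4.7e-06). Between the lines it was called lower in knockout-labelled cells under vehicle and was not called under IFNγ (−0.20 ± 0.13, edgeR adjusted p = 0.22). The within-batch differences between the lines under IFNγ were 0.07, −0.96 and −0.28, so in batch 2 the lines lay as far apart with IFNγ as with vehicle (−0.90). The call on the difference of responses was lost without any 1 of 16 of the 20 libraries, the 4 exceptions being knockout-labelled IFNγ replicates 4 and 5, knockout-labelled vehicle replicate 5 and wild-type IFNγ replicate 4. Within batches the difference of responses was 0.77, −0.06 and 0.64.

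**Figure D5:**
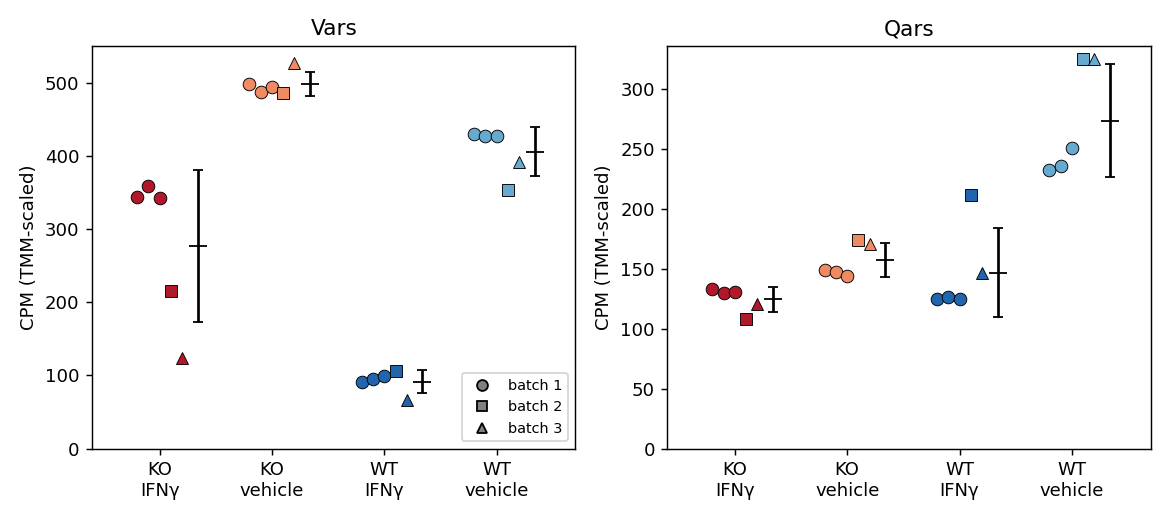
Level of Vars (left) and Qars (right) in CPM on TMM-scaled library sizes for each library by line and treatment, with symbols for batch and bars for mean ± SD (n = 5). Vars averaged 277 CPM in knockout-labelled and 91.5 CPM in wild-type IFNγ libraries, and Qars 157 CPM in knockout-labelled and 274 CPM in wild-type vehicle libraries.

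Wars2, unlike Wars, was not called higher with IFNγ in either line. It had 12.3, 11.7, 12.9, 9.31 and 9.65 CPM in knockout-labelled IFNγ libraries, against 18.7, 15.2, 16.02, 13.5 and 12.3 CPM with vehicle. In wild-type cells it had 10.1, 10.9, 9.18, 3.59 and 3.65 CPM with IFNγ, against 12.2, 12.8, 13.0, 12.1 and 11.5 CPM with vehicle. It fell in wild-type cells, without overlap (log2 −0.80 ± 0.20, edgeR adjusted p = 0.0020), and was not called in knockout-labelled cells, where the groups just overlapped (−0.44 ± 0.20, edgeR adjusted p = 0.075). Under IFNγ it was called higher in knockout-labelled than in wild-type cells (0.64 ± 0.20, edgeR adjusted p = 0.015), and under vehicle it was not called (0.28 ± 0.20, edgeR adjusted p = 0.32). The call under IFNγ was lost with plain library totals (adjusted p = 0.051) and without a batch term (adjusted p = 0.11). The two-sided exact permutation test did not order these comparisons as the fit did, giving p = 0.063 between the lines under IFNγ, 0.024 under vehicle, 0.016 for IFNγ in knockout-labelled cells and 0.0079 for IFNγ in wild-type cells. That test takes no account of batch, whereas the fit has batch as a term. The spread of Lars2, the mitochondrial leucine gene, was wide. It had 1092 CPM in replicate 4 and 203 to 478 CPM in the other 4 knockout-labelled IFNγ libraries, and it is named here because its values were seen.

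The non-catalytic scaffold genes fell as well. The 3 scaffold genes Aimp1, Aimp2 and Eef1e1 all fell with IFNγ in both lines. Of all genes tested, 21.8% fell in knockout-labelled and 29.9% in wild-type cells. The median log2 change of the 3 was −0.49 in knockout-labelled and −0.74 in wild-type cells. Aimp2 changed by −0.67 ± 0.19 in knockout-labelled cells (edgeR adjusted p = 0.0073) and by −1.14 ± 0.19 in wild-type cells (edgeR adjusted p = 4.0e-05). All 3 were called higher in knockout-labelled than in wild-type cells under IFNγ, where 20% of all genes tested were. Under vehicle none of the 3 was called, Aimp1 differing by 0.03 ± 0.12 (edgeR adjusted p = 0.89). Of 10 tested genes for tRNA amidation, trans-editing and related functions, 4 fell in knockout-labelled and 6 in wild-type cells with IFNγ, where 21.8% and 29.9% of all genes tested did. Gatb, a subunit of the mitochondrial amidotransferase that completes glutaminyl-tRNA, changed by −0.95 ± 0.21 in knockout-labelled and −1.53 ± 0.21 in wild-type cells (edgeR adjusted p = 0.0012 and 5.1e-06). Tarsl2, a threonyl-tRNA synthetase paralog of Tars, was low throughout, at 0.647 to 2.42 CPM in knockout-labelled and 0.0538 to 0.367 CPM in wild-type vehicle libraries (log2 2.84 ± 0.60, edgeR adjusted p = 0.0013).

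The ATF4 and amino acid response list, which holds genes of amino acid synthesis and transport and the regulators that drive them, changed in both directions. Of 23 tested, 3 rose and 14 fell with IFNγ in knockout-labelled cells, and 7 rose and 12 fell in wild-type cells. Of all genes tested, 21.4% rose and 21.8% fell in knockout-labelled cells, and 29% rose and 29.9% fell in wild-type cells, so the list's rises were near or below the share of all genes. The list's median log2 change was −0.67 in knockout-labelled and −0.79 in wild-type cells. Among the regulators in wild-type cells, Atf4 rose by 1.25 ± 0.17 (edgeR adjusted p = 4.5e-06), and Ddit3 rose too. In knockout-labelled cells Atf4 was not called (0.01 ± 0.17, edgeR adjusted p = 0.97). Its mean level there was 576 CPM with IFNγ and 577 CPM with vehicle, against 750 and 323 CPM in wild-type cells. The vehicle levels thus differed too. Among the serine and one-carbon enzymes in wild-type cells, Phgdh changed by −2.78 ± 0.30, Psph by −2.30 ± 0.25 and Shmt2 by −2.87 ± 0.32 (edgeR adjusted p = 2.6e-07, 2.4e-07 and 4.9e-07). The transporter subunit Slc3a2 had 204 to 288 CPM in knockout-labelled IFNγ libraries, against 388 to 1029 CPM in wild-type ones, and its response differed between the lines (−1.61 ± 0.18, edgeR adjusted p = 4.9e-05). Between the lines under IFNγ, 14 of 23 were higher and 2 lower in knockout-labelled cells (20% and 19% of all genes), and under vehicle 7 were higher (12.5% of all genes).

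Of the 7 tested genes of tryptophan catabolism, the other main use of the amino acid that Wars consumes, 2 fell with IFNγ in knockout-labelled and 3 in wild-type cells, where 21.8% and 29.9% of all genes tested fell, so these counts are near the share of all genes. Kmo, which hydroxylates kynurenine, had 0.116 to 1.06 CPM with IFNγ in knockout-labelled cells, against 0.778 to 2.89 CPM with vehicle (log2 −1.47 ± 0.40, edgeR adjusted p = 0.0064). In wild-type cells it had 0 to 0.426 CPM with IFNγ, against 2.35 to 10.2 CPM with vehicle (log2 −4.98 ± 0.47, edgeR adjusted p = 4.0e-08). Ido1, which opens the pathway and is IFNγ-induced in many macrophages, had 12 counts in all 5 knockout-labelled IFNγ libraries and 3 in the wild-type ones, too few to test. Of 12 IFNγ signalling genes, 9 rose in knockout-labelled and 10 in wild-type cells, and Ifngr1 fell in both, where 21.4% and 29% of all genes tested rose. Irf1, a transcription factor gene induced early by IFNγ, rose by 4.68 ± 0.33 in knockout-labelled cells (edgeR adjusted p = 2.2e-09) and by 5.05 ± 0.34 in wild-type cells (edgeR adjusted p = 6.4e-10).

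In human monocytic cells Eprs protein joins Rpl13a, Syncrip and Gapdh in a complex that holds back translation of some IFNγ-induced messages. Of these 3 partners, Syncrip fell in both lines, by −0.71 ± 0.11 in knockout-labelled and −1.06 ± 0.11 in wild-type cells (edgeR adjusted p = 5.8e-05 and 2.1e-07). Rpl13a changed by −0.49 ± 0.20 in knockout-labelled cells, which was not called (edgeR adjusted p = 0.057), and by −0.48 ± 0.20 in wild-type cells, which was (edgeR adjusted p = 0.049). Gapdh was called in neither line. Eprs fell by 0.52 on the log2 scale in knockout-labelled cells (edgeR adjusted p = 0.0040) and by 0.87 in wild-type cells (edgeR adjusted p = 2.0e-05).

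Some values rest on genes that cannot be counted apart without strand. Exons overlap a gene with reads on the opposite strand for Mars, Hars, Hars2, Iars2, Yars, Cars2, Ears2, Fars2, Farsb and Nars2, so these values are less certain. Wars overlapped no gene and had no other gene with a similar stretch of 100 bases or more at 95% identity. Iars shares 1656 bases with the pseudogene Gm4849, which had 5 counts in all 20 libraries, against 126942 for Iars.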

How the data were processed

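Raw read counts per gene were deposited by the authors for all 20 libraries, and every column matched a library by name. Per the submitters' processing notes, the tools were STAR, Trim Galore, FastQC and DESeq2 and the build GRCm39, with no roles or versions. Counting tool, strand setting and annotation release were not given in the sources used here. GENCODE vM21 (GRCm38) gave symbols for 91.2% of gene IDs and exon lengths for CPM per kb. Counts were scaled by TMM, filtered with filterByExpr (13755 genes) and fitted with edgeR 4.0.16 (R 4.3.3, limma 3.58.1), robust quasi-likelihood, with group and batch as terms and 14 residual degrees of freedom. A gene was called at a Benjamini-Hochberg adjusted p under 0.05 over all genes tested. CPM uses TMM-scaled sizes, and within-batch differences are of log2 CPM with 0.5 added. On simulated wild-type IFNγ data, the fit called 16.4% of 1.5-fold changes, 56.7% of 2-fold changes, 84.8% of 4-fold changes and 0.0221% of unchanged genes. The changes were planted in only 67, 67 and 66 of 13755 genes, without batch differences. These rates therefore do not carry over to the real comparison, where many more genes were called.

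Genes named in full are Wars, Wars2 and the 4 called members each way with the smallest adjusted p in each comparison; from each list, up to 3 called genes each way, or the highest gene if none was called. Some qualifying genes are not named, and 1 member is counted but not reported here by itself. The members and lists were chosen with earlier results of these data known. Alternatives were RLE factors, plain totals, no filter beyond 1 read, DESeq2 1.42.0, no batch term, a replicate block, batch subsets and leaving out each library. Replicates of a group differed by a chi-squared per degree of freedom of 3.69 to 14.4 within batch 1 and 15.2 to 397 across batches. No library was therefore a copy, but the libraries of batch 1 were much more alike.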

Additional observations from a re-analysis of the deposited data

Results flagged for a closer look

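The IFNγ response differed between the lines for 2 of 37 members by the edgeR interaction test, where 3.64% of all genes tested were called higher. They were Vars (log2 1.25, knockout-labelled minus wild type) and Qars (0.59, edgeR adjusted p = 0.049). The Qars call was lost in 21 of 29 alternatives. The Vars call was lost with batches 2 and 3 alone. Single libraries also stood apart from the other 4 of their group by Dixon's criterion. With IFNγ, Hars2 was highest in knockout-labelled replicate 5 at 20.2 CPM (the others 12.3 to 14.1 CPM), and Tars2 was lowest in the same library at 63.7 CPM (the others 94.7 to 100.1 CPM). Also with IFNγ, Eprs was lowest in wild-type replicate 5 at 253 CPM (the others 277 to 283 CPM), and Qars was highest in wild-type replicate 4 at 211 CPM (the others 125 to 147 CPM). With vehicle, Tars was lowest in knockout-labelled replicate 4 at 218 CPM (the others 309 to 324 CPM), and Vars was highest in knockout-labelled replicate 5 at 527 CPM (the others 486 to 498 CPM). These are 6 of 60 groups examined over 15 genes. Chance gives about 1 in 20 groups where all 5 libraries vary alike, which was not so here, so that rate does not carry over. Each of these libraries belongs to batch 2 or 3, the batches with 1 library per group. Libraries of batch 1 were much more alike, so a library of another batch was the likelier to stand apart.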

How the results depend on the processing

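Wars remained called higher with IFNγ in both lines under all 29 alternatives (log2 1.06 to 1.59 in knockout-labelled and 0.84 to 1.39 in wild-type cells) and had the highest change of the 37 members each time. Of 23 named calls on members other than Wars, 7 held in every alternative and 16 were lost in at least 1. All 7 were falls with IFNγ, namely Dars, Mars, Nars2, Vars and Wars2 in wild-type and Iars2 and Nars2 in knockout-labelled cells. Every named call between the lines, or on the difference of responses, was lost in at least 1 alternative. The alternative without the 4 IFNγ libraries of batches 2 and 3 was added after the data were seen. The cause of these shifts was not tested. Batches 2 and 3 hold 1 library per group each, which limits what they can show alone.

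With batch 1 alone, members called higher with IFNγ were 3 in knockout-labelled cells (Wars, Aars and Kars) and 2 in wild-type cells (Wars and Hars2). Of all genes, 28.1% in knockout-labelled and 37.4% in wild-type cells were. Wars minus the median of the other members was then 1.46 in knockout-labelled cells. Between the lines 31 were higher with IFNγ (35.8% of all genes), and 12 were higher and 13 lower with vehicle (28.4% and 30.0% of all genes, so near the share of all genes), where Wars reversed to −0.10 (adjusted p = 0.057). Responses differed upward for 29 and downward for 1 (29.7% and 21.6% of all genes). Wars was among the 29 (0.31, edgeR adjusted p = 0.00029), whereas the fit on all batches did not call it (0.29, edgeR adjusted p = 0.44). Libraries within batch 1 differed less from each other than libraries across batches. A p-value from batch 1 alone therefore reflects a narrower spread. Wars minus the median of the others was −0.40 between the lines with IFNγ and −0.32 for the difference of responses.

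With batches 2 and 3 alone, 2 members (Wars and Lars2) were called higher in knockout-labelled cells with IFNγ (15.3% of all genes). In wild-type cells 20 were called lower (18.6% of all genes). Wars exceeded the median of the others by 2.69 in knockout-labelled and 2.32 in wild-type cells. Between the lines with IFNγ, 2 (Mars2 and Wars2) were called higher and 1 (Gars) lower (6.38% and 7.05% of all genes). The lower call of Hars2 was lost. With vehicle 0 were higher and 0 lower (1.5% and 4.43% of all genes). Responses differed upward for 0 (0.728% of all genes). Wars minus the median of the others was 0.38 between the lines with IFNγ and 0.39 for the difference of responses.

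Without the 4 IFNγ libraries of batches 2 and 3, 2 members were called higher with IFNγ in each line. Of all genes, 23.6% in knockout-labelled and 33.4% in wild-type cells were. Wars exceeded the median of the others by 1.40 in knockout-labelled cells. Between the lines 28 were higher and 2 lower with IFNγ (30.5% and 28.1% of all genes). With vehicle 14 were higher and 5 lower (27.3% and 26.4% of all genes). Responses differed upward for 23 and downward for 1 (22.3% and 15.7% of all genes). Wars minus the median of the others was −0.40 between the lines with IFNγ and −0.44 for the difference of responses.

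The Wars difference between the lines with IFNγ was no longer called with RLE factors (0.35), without a filter (0.39), with DESeq2 (0.35), without a batch term (0.38), with batches 2 and 3 alone (0.60) or without the 4 libraries (0.20), at adjusted p of 0.053 to 0.17. Without a filter, Lars2 was also called higher with IFNγ in knockout-labelled cells (2 members, 10.1% of all genes). Without a batch term, 15 members were called lower there, 3 higher between the lines with vehicle and 1 upward in the difference of responses. The shares of all genes were 11.7%, 6.86% and 0.509%. DESeq2 called 4 in the last comparison (6.01% of all genes). Plain totals called 3 higher with vehicle between the lines and 1 in the difference of responses (11.5% and 2.36% of all genes). They shifted the median of all genes by −0.15 in knockout-labelled and −0.22 in wild-type cells with IFNγ, and by 0.12 between the lines with IFNγ. The share of calls that were higher was then 38.5%, 36.7% and 62.3% in these 3 comparisons, against 49.5%, 49.2% and 51.4% with TMM.

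Replicate numbers did not pair the libraries within batch 1, where deviations of same-numbered libraries correlated at −0.04 to 0.04. With the replicate number as a block, Wars between the lines with IFNγ was 0.37 (edgeR adjusted p = 0.072). Then 4 members were higher between the lines with vehicle (10.5% of all genes). In the difference of responses 1 member was called upward (2.09% of all genes).

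Leaving out 1 library at a time gave 1 to 2 members called higher with IFNγ in each line, 3 to 8 higher between the lines with vehicle, 1 to 5 upward and 0 to 1 downward in the difference of responses. Wars minus the median of the others ranged from 1.73 to 2.09 with IFNγ in knockout-labelled cells, from −0.35 to 0.02 between the lines with IFNγ and from −0.26 to 0.13 for the difference of responses. The Wars difference between the lines ranged from 0.23 to 0.43 with IFNγ. With vehicle it ranged from −0.07, the reversed value without wild-type vehicle replicate 5, to 0.14.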
